A study of Mus musculus with 8 samples.

Results

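The genes described here are 10 regulators of the actin filaments that position the spindle in mouse oocytes: the nucleators Fmn2, Spire1 and Spire2, the vesicle motor Myo5b and the vesicle GTPase Rab11a, the small GTPases Cdc42 and Rac1, the Arp2/3 complex subunits Actr2 and Actr3, and the filament-severing protein Cfl1. They were chosen by name for their known roles, with earlier results of these data known. All 10 were found among the 46078 genes of the count table, and all 10 were among the 19241 genes with enough reads to be tested.

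Total RNA of fully grown oocytes was sequenced in 8 libraries, 4 per group, each from 100 oocytes. The oocytes were at the germinal vesicle (GV) stage, at which the nucleus is still intact before meiosis resumes. They were taken from females of 4 weeks on a C57BL/6J background, 48 h after an injection of PMSG, a gonadotropin that makes follicles grow. In CNOT7&8 KO oocytes the targeted genes were Cnot7 and Cnot8, which encode deadenylases of the CCR4-NOT complex, enzymes that shorten the poly(A) tails of mRNAs. Both floxed genes were deleted by Zp3-Cre, a Cre recombinase that the zona pellucida 3 promoter drives in growing oocytes. Controls were oocytes of Zp3-Cre mice, so Cre was present in both groups and a Cre-free group was not part of the comparison. Cumulus cells had been removed with hyaluronidase. The labels do not say how many females gave each pool of oocytes, so p-values measure the spread between these libraries, which may in part be technical.

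An oocyte divides very unequally, and for this its spindle has to move from the centre to the cortex. The move depends on a cytoplasmic actin meshwork that formin-2 and Spire proteins nucleate together on the surface of RAB11A-positive vesicles, which myosin Vb pulls outward along the same filaments. At the cortex, CDC42 and RAC1 act on the branched network built by the Arp2/3 complex, and cofilin takes old filaments apart. GV oocytes transcribe little and rely on stored mRNAs, whose poly(A) tails are shortened by CCR4-NOT and lengthened again through the cytoplasmic polyadenylation element (CPE, UUUUAU) in their 3′UTRs.

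The CPE was therefore located in the 3′UTR of each regulator (GRCm38 sequence with the GENCODE vM21 annotation, sense strand only, letters TTTTAT, overlapping matches counted). At least 1 copy was found in 7 of the 10 regulators: 6 copies in Actr2, 4 in Spire1, 4 in Rab11a, 2 in Fmn2, 2 in Actr3, 1 in Myo5b and 1 in Rac1. Spire2, Cdc42 and Cfl1 had none. The motif is common, as 53.9% of the 15167 tested coding genes with an annotated 3′UTR held at least 1 copy. The share differed with length. Among tested genes with a 3′UTR within 20% of the regulator's own length, it was 11.3% for Spire2, and from 55.6% (Myo5b) to 87.6% (Rac1) for the others. A CPE within 100 bases before a polyadenylation signal (AATAAA or ATTAAA in the last 50 bases) was found in Spire1 and Rab11a, against 11.7% of those 15167 genes. The windows below show, for 5 regulators, the copy closest to the 3′ end, because it is the position relative to the poly(A) tail that differs among them. Each is 30 bases of the transcribed strand, 5′ to 3′, with the CPE in capitals.
Rab11a, chr9:64715371-64715400, minus strand: tgctactttgtaTTTTATgcatgctctgta
Actr3, chr1:125393114-125393143, minus strand: gcaagctgacttTTTTATgtgctctgtaca
Actr2, chr11:20062487-20062516, minus strand: taattaaaattcTTTTATttttaaattaaa
Fmn2, chr1:174822531-174822560, plus strand: gaaacagtagtgTTTTATtttcttctgctg
Rac1, chr5:143504407-143504436, minus strand: tctggattttttTTTTATttttaattgtgt
The Rab11a copy started 64 bases before the signal, whereas the closest copies of Actr2, Fmn2 and Actr3 started 177, 178 and 206 bases before it. No signal was found in the last 50 bases of the Rac1 3′UTR. Of the 5 regulators that fell in the KO, 4 held a CPE and Cfl1 did not. Actr2, with most copies, Fmn2 and Rac1 held a CPE and were not called lower, which does not show that they were unchanged. Spire1 and Rab11a, with a CPE within 100 bases before the signal, both fell, as did Myo5b, Actr3 and Cfl1 without one. Whether the CPE has a part in these changes was not tested.

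Counts summed to between 14943671 and 44092144 in control libraries and to between 8639444 and 26784110 in KO libraries. The 10 regulators had from 167 to 31942 counts in a library, far above 3 counts, taken as the smallest detectable signal (0.068 to 0.347 CPM, counting error only). Cnot8 fell to 21.0% of the control level, from between 154.2 and 197.3 to between 33.12 and 36.14 normalized CPM. Cnot7 fell to 77.1%, so reads of the deleted gene were still present in the KO libraries. Control replicate 1, the deepest library, stood apart from the other controls (chi-square per degree of freedom from 154 to 231 in its pairs, from 8.48 to 19.4 in the others), and KO replicate 4 was farthest from the other KO libraries (44.6 to 102, against 22.3 to 35.6). Results are therefore also given without both of them, an alternative added after the data were seen. The oocyte markers summed to between 15600 and 18100 CPM in control and from 13200 to 15500 CPM in the KO.

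Among the regulators, 5 of 10 were lower in CNOT7&8 KO oocytes (Spire1, Myo5b, Rab11a, Actr3 and Cfl1) and 0 were higher (edgeR's quasi-likelihood test, Benjamini-Hochberg adjusted p of at most 0.05 over all 19241 genes). Over all tested genes, 24.1% were lower and 31.2% were higher by the same rule. Highly expressed mRNAs had another background: of the 2414 genes that averaged 100 CPM or more, 55.2% were lower and 8.37% were higher. The 5 regulators that fell were among the 8 with at least 100 CPM, so their share was near that of all mRNAs of such a level. The median log2 fold change of the 10 was -0.38, beside -0.37 for genes of at least 100 CPM and 0.12 for all tested genes. The control and KO values did not overlap for the same 5 regulators, while 48.4% of all tested genes had groups without overlap. CPM is a share of a library, so less of an mRNA per oocyte and more of the other RNA cannot be told apart here. Without control replicate 1 and KO replicate 4, the same 5 regulators were lower.

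**Figure D1:**
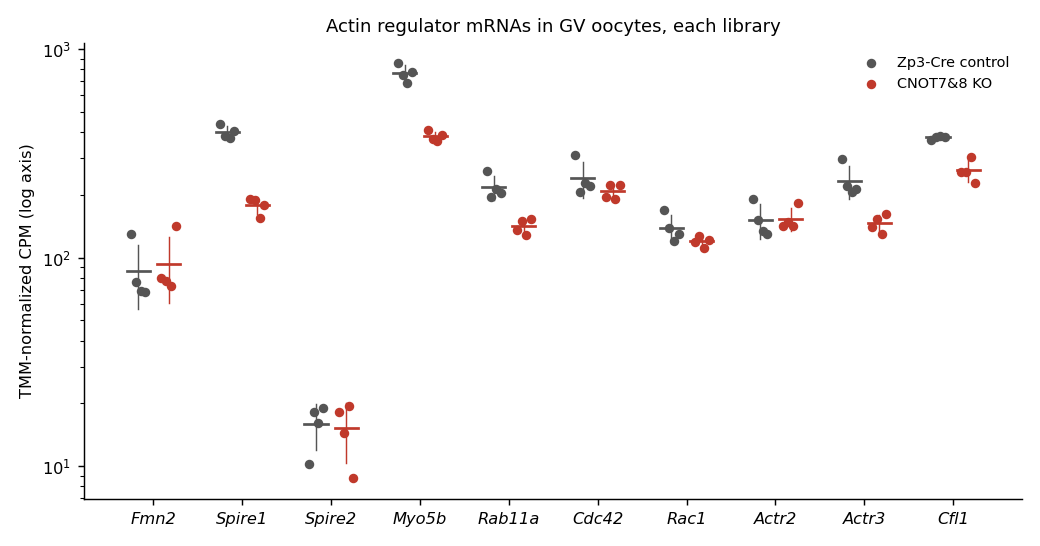
Normalized CPM (log axis) of the 10 regulators in each library, with 4 control (grey) and 4 KO (red) points per gene, the mean as a horizontal bar and the SD as a vertical line. The KO points of Spire1, Myo5b, Rab11a, Actr3 and Cfl1 all lie below the control points, whereas the groups overlap for the other 5 genes.

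A loss at least 2-fold in size was found for Spire1 and Myo5b, 2 of the 10, beside 6.56% of all tested genes that were lower by this rule and 23.8% that were higher, and beside 6.05% lower among genes of at least 100 CPM. Myo5b lay at the threshold, with a log2 fold change of -1.01, and lost it under other scalings and without some single libraries (-0.95 without control replicate 1). Spire1 also lost it with library size only (-0.88) and with TMM on genes of at least 10 CPM (-0.91), so that the count was then 0. Of the 2414 genes of at least 100 CPM, 73 (3.02%) had a lower log2 fold change than Spire1 and 146 (6.05%) had a lower one than Myo5b.

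Spire1 and Spire2 encode proteins that line up actin monomers into a nucleus and work together with formin-2. Spire1 (GRCm38 chromosome 18, from 67488209 to 67610790, minus strand) had 439.0, 382.1, 374.4 and 402.9 normalized CPM in control replicates 1 to 4 and 190.5, 189.8, 154.3 and 179.1 CPM in KO replicates 1 to 4. Every KO library was below every control library. The mean fell from 399.6 ± 28.9 to 178.4 ± 16.9 CPM (SD, n = 4), to 44.7% of control, with a log2 fold change of -1.16 (edgeR's quasi-likelihood test, standard error (SE) 0.11, adjusted p = 3.87e-06). Spire2 (chromosome 8, from 123332713 to 123369515, plus strand) was scarce in both groups. It had 10.29, 18.16, 16.13 and 19.08 CPM in control replicates 1 to 4 and 18.13, 14.34, 19.49 and 8.754 CPM in KO replicates 1 to 4. The groups overlapped, with the lowest control value in replicate 1 and the lowest KO value in replicate 4, and the log2 fold change was -0.07 (edgeR's quasi-likelihood test, SE 0.26, adjusted p = 0.825).

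The ratio of the paralogs within a library does not depend on how libraries are scaled to each other. Spire1 had 42.4, 20.9, 23.0 and 21.0 times the counts of Spire2 in control replicates 1 to 4 and 10.4, 13.1, 7.87 and 20.3 times in KO replicates 1 to 4 (2 counts added to each). The groups did not overlap, although KO replicate 4 came close to control replicates 2 and 4. On average the ratio was 2.1 times lower in KO libraries (log2 difference -1.07, exact permutation test, two-sided, p = 0.0286, adjusted p = 0.0381 over the 4 ratios tested). A p of 0.0286 is the smallest that the 70 assignments of 8 libraries allow. The permutation p was 0.0571 when any single control library was left out, and the difference ranged from -1.32 to -0.83 over the libraries left out in turn. In each of these settings the groups still did not overlap.

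Fmn2, which encodes the formin that elongates the filaments of the cytoplasmic meshwork, differed from its partner Spire1. Fmn2 (chromosome 1, from 174501825 to 174822729, plus strand) had 129.3, 76.25, 69.40 and 68.25 CPM in control replicates 1 to 4 and 80.14, 77.66, 72.96 and 142.5 CPM in KO replicates 1 to 4. The 6 other libraries lay close together, and the high values were those of control replicate 1 and KO replicate 4. The log2 fold change was 0.12 (edgeR's quasi-likelihood test, SE 0.25, adjusted p = 0.697), -0.13 without KO replicate 4, and 0.11 without both libraries. Fmn2 was thus neither higher nor lower beyond the spread, and with a coefficient of variation of 34% in control and 35.3% in KO libraries a moderate difference was not detectable.

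Myo5b encodes myosin Vb, the motor that carries RAB11A vesicles outward, and was the most abundant of the 10 by CPM. Myo5b (chromosome 18, from 74440936 to 74771493, plus strand) had 853.9, 752.6, 684.9 and 776.5 CPM in control replicates 1 to 4 and 408.3, 371.2, 362.3 and 386.8 CPM in KO replicates 1 to 4. Its KO values were all far below the controls. The mean fell from 767.0 ± 69.8 to 382.1 ± 20.2 CPM (SD, n = 4), to 49.8% of control (log2 fold change -1.01, edgeR's quasi-likelihood test, SE 0.10, adjusted p = 7.93e-06).

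Rab11a encodes the small GTPase that marks these vesicles. Rab11a (chromosome 9, from 64715299 to 64737758, minus strand) had 259.8, 194.8, 214.5 and 203.9 CPM in control replicates 1 to 4 and 135.7, 149.7, 129.0 and 152.9 CPM in KO replicates 1 to 4. The groups did not overlap, and the mean fell from 218.2 ± 28.8 to 141.8 ± 11.4 CPM (SD, n = 4), to 65.0% of control (log2 fold change -0.62, edgeR's quasi-likelihood test, SE 0.12, adjusted p = 0.000776). Motor and vesicle GTPase thus both fell, but not by the same amount. Myo5b had 3.29, 3.86, 3.19 and 3.81 times the counts of Rab11a in control replicates 1 to 4 and 3.0, 2.48, 2.81 and 2.53 times in KO replicates 1 to 4. This ratio was 1.31 times lower in KO libraries, without overlap (log2 difference -0.39, exact permutation test, two-sided, p = 0.0286, adjusted p = 0.0381). The permutation p was 0.0571 without control replicate 2 or 4, and in both settings the groups still did not overlap.

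Cdc42 and Rac1 encode the GTPases that switch on actin assembly at the membrane, and neither passed the test. Cdc42 (chromosome 4, from 137319696 to 137357720, minus strand) had 311.2, 205.9, 226.9 and 220.6 CPM in control replicates 1 to 4 and 194.9, 223.4, 190.7 and 223.0 CPM in KO replicates 1 to 4. Control replicate 1 was above the other 7 libraries, which overlapped (log2 fold change -0.21, edgeR's quasi-likelihood test, SE 0.14, adjusted p = 0.199). Rac1 (chromosome 5, from 143503634 to 143528036, minus strand) had 169.6, 138.1, 120.0 and 129.3 CPM in control replicates 1 to 4 and 118.4, 126.7, 111.4 and 122.0 CPM in KO replicates 1 to 4. The groups overlapped, and the log2 fold change was -0.22 (edgeR's quasi-likelihood test, SE 0.12, adjusted p = 0.140). With library sizes taken as they are, both log2 fold changes had the opposite sign (0.08 for Cdc42 and 0.07 for Rac1), and neither passed the test.

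The Rac1 value has a limit of its own. The gene Daglb lies on the opposite strand, and 2309 of the 4496 exon bases of Rac1 are also exon bases of Daglb, whose counts summed to 93.7% of those of Rac1. The strand setting of the counting is not given in the sources used here, so reads of the 2 genes cannot be told apart if strand was not used. Daglb fell (log2 fold change -0.67, adjusted p = 0.00072, edgeR's quasi-likelihood test). For Cfl1, Snx32 on the opposite strand shares 468 exon bases but had only 0.547% of the Cfl1 counts. For the other 8 regulators, the counts of overlapping genes came to at most 0.0145% of the regulator's own. The ratio of Cdc42 to Rac1 was 1.83, 1.49, 1.89 and 1.71 in control replicates 1 to 4 and 1.65, 1.76, 1.71 and 1.83 in KO replicates 1 to 4, with overlapping groups (log2 difference 0.01, exact permutation test, two-sided, p = 0.971, adjusted p = 0.971).

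Actr2 and Actr3 encode ARP2 and ARP3, the actin-related proteins that form the template of a new branch and that the complex holds in equal number. Their mRNAs parted in the KO. Actr2 (chromosome 11, from 20062304 to 20112913, minus strand) had 191.8, 151.6, 133.6 and 129.4 CPM in control replicates 1 to 4 and 142.5, 147.6, 141.5 and 182.8 CPM in KO replicates 1 to 4. The groups overlapped across their range, with means of 151.6 ± 28.5 and 153.6 ± 19.7 CPM (SD, n = 4) and a log2 fold change of 0.02 (edgeR's quasi-likelihood test, SE 0.14, adjusted p = 0.921). Of the 2414 genes of at least 100 CPM, 80.0% had a lower log2 fold change. Actr3 (chromosome 1, from 125392905 to 125435727, minus strand) had 296.2, 220.2, 206.1 and 213.2 CPM in control replicates 1 to 4 and 140.4, 153.5, 129.6 and 161.3 CPM in KO replicates 1 to 4. Every KO library was below every control library, and the mean fell from 233.9 ± 41.9 to 146.2 ± 14.0 CPM (SD, n = 4), to 62.5% of control (log2 fold change -0.68, edgeR's quasi-likelihood test, SE 0.13, adjusted p = 0.00103).

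The shift between Actr2 and Actr3 was the steadiest of the 4 ratios. Actr2 had 0.648, 0.689, 0.649 and 0.607 times the counts of Actr3 in control replicates 1 to 4 and 1.01, 0.961, 1.09 and 1.13 times in KO replicates 1 to 4. The ratio was 1.62 times higher in KO libraries (log2 difference 0.70, exact permutation test, two-sided, p = 0.0286, adjusted p = 0.0381). The exact permutation p was 0.0286 without each library in turn, with differences from 0.66 to 0.74, and control replicate 1 and KO replicate 4, which were high for Actr2, did not stand apart in the ratio.

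**Figure D2:**
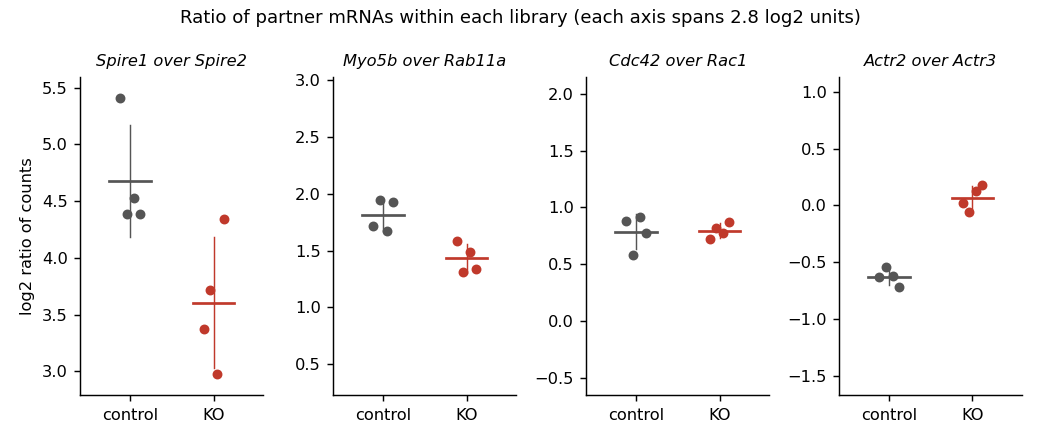
Log2 ratio of the counts of 2 partner mRNAs within each library, for control (grey) and KO (red) libraries, with the mean as a horizontal bar and the SD as a vertical line; each axis spans the same range of log2 units. The ratios Spire1 over Spire2 and Myo5b over Rab11a are lower and Actr2 over Actr3 is higher in the KO without overlap, and Cdc42 over Rac1 overlaps.

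Cfl1 encodes cofilin, which severs old filaments and so returns actin monomers for new ones. Cfl1 (chromosome 19, from 5490455 to 5495201, plus strand) had 367.7, 380.7, 382.1 and 380.8 CPM in control replicates 1 to 4 and 258.6, 258.4, 302.3 and 227.9 CPM in KO replicates 1 to 4. The controls were nearly equal, and all KO libraries lay below them. The mean fell from 377.8 ± 6.76 to 261.8 ± 30.6 CPM (SD, n = 4), to 69.3% of control (log2 fold change -0.53, edgeR's quasi-likelihood test, SE 0.11, adjusted p = 0.00108). With library sizes taken as they are, Cfl1 no longer passed the test (log2 fold change -0.25, adjusted p = 0.0713).

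The scaling of libraries moved all 10 values together. TMM, which sets most genes as unchanged, multiplied library sizes by 0.849 to 0.943 for the controls and by 1.07 to 1.14 for the KO. Library sizes without a factor raised the median log2 fold change of all genes by 0.29, and TMM computed on genes of at least 10 CPM raised it by 0.25. Relative to this shift the order of the regulators was similar: without a factor, Spire1 (-0.88), Myo5b (-0.72), Actr3 (-0.39) and Rab11a (-0.34) were lower and passed the test, and Actr2 had a log2 fold change of 0.31 that did not (adjusted p = 0.0529).

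**Figure D3:**
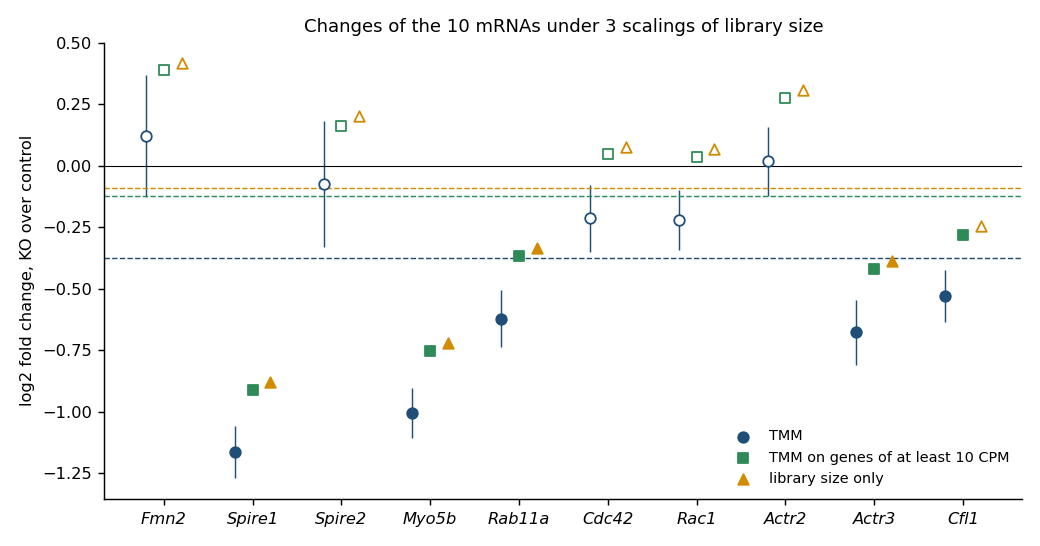
Log2 fold change (KO over control) of the 10 regulators under 3 scalings of library size; filled symbols passed an adjusted p of 0.05, error bars are standard errors for TMM, and dashed lines are the median of the genes of at least 100 CPM under each scaling. Spire1 and Myo5b lie lowest under each scaling, and Cfl1 is open only for library size alone.

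Levels of different genes were compared per kilobase of annotated exon. In control oocytes the order was Cfl1 (133 CPM per kb), Cdc42 (81.3), Myo5b (78.5), Rab11a (72.9), Spire1 (51.5), Actr3 (50.5), Rac1 (31.0), Actr2 (29.1), Fmn2 (10.8) and Spire2 (6.34). The libraries of neighbours overlapped for Cdc42 and Myo5b, Myo5b and Rab11a, Spire1 and Actr3, and Rac1 and Actr2. Compared within the same control library, Rac1 was above Actr2 in 4 libraries, Myo5b above Rab11a and Spire1 above Actr3 in 3, and Cdc42 above Myo5b in 2. In KO oocytes the order was Cfl1 (92.1 CPM per kb), Cdc42 (70.1), Rab11a (47.4), Myo5b (39.1), Actr3 (31.6), Actr2 (29.5), Rac1 (26.6), Spire1 (23.0), Fmn2 (11.7) and Spire2 (6.05). Only Actr3 with Actr2 and Actr2 with Rac1 overlapped as neighbours. Within the same KO library, Actr2 was above Rac1 in 4 libraries and Actr3 above Actr2 in 3. Spire1 moved down from the fifth to the eighth place, below Actr2 and Rac1, and Myo5b moved below Rab11a.

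The other genes of these pathways were examined as 7 lists of 114 genes, of which 109 could be tested. Of these 109, 31 were higher and 38 were lower (adjusted p of at most 0.05, edgeR's quasi-likelihood test), and 18 were higher and 10 lower by at least 2-fold. Over all tested genes, 31.2% were higher and 24.1% lower, and 23.8% and 6.56% by at least 2-fold. Without a scaling factor the split was 42 higher and 26 lower. The split differed with the level of the gene: among the 82 genes of at least 10 CPM, 18 were higher and 37 lower, and among the 26 of at least 100 CPM, 1 was higher and 19 were lower, with a median log2 fold change of -0.61. Over all genes of at least 100 CPM, 8.37% were higher and 55.2% lower. Of all 6314 tested genes of 10 to under 100 CPM, 1625 were higher and 2326 lower. The 82 pathway genes include the 26 of at least 100 CPM, so these 2 sets are not alike in level. Markers of granulosa and cumulus cells also moved with the group: their sum was between 127 and 171 CPM in control and between 212 and 265 CPM in KO libraries, 5 of 9 tested markers were higher and 1 was lower, and the markers went different ways. Inha rose from 6.86 to 25.9 CPM, Kitl from 16.0 to 43.4, Nr5a2 from 56.6 to 122, Fshr from 1.29 to 3.87 and Inhba from 2.50 to 5.50 CPM, Cyp19a1 fell from 58.5 to 31.3 CPM, and Foxl2 had at most 1 count in any library. Their part in the rise of pathway genes was not tested. Theca, blood and immune markers summed to between 87.5 and 109 CPM in control and between 75.6 and 89.1 CPM in KO libraries, with Hba-a1 and Hbb-bs at 0. Nearly all of this sum was Pecam1 (mean 96.2 CPM in control and 82.2 in KO libraries). Of 5 tested markers 1 was higher, Ptprc, from 0.122 to 0.616 CPM.

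Of the 8 other Arp2/3 subunits, 3 were higher and 4 lower (median log2 fold change -0.31). Over all tested genes, 31.2% were higher and 24.1% lower, and among genes of at least 100 CPM 8.37% and 55.2%. The subunits with 2 gene copies moved in opposite directions. Arpc1a rose from 13.15 ± 1.6 to 28.71 ± 5.86 CPM (SD, n = 4) and Arpc5 from 16.97 ± 2.19 to 28.93 ± 3.80 CPM, whereas Arpc5l fell from 233.9 ± 46.5 to 133.3 ± 8.05 CPM and Arpc1b, variable in both groups, fell from 143.6 ± 55.7 to 80.19 ± 31.3 CPM (adjusted p = 0.0426, edgeR's quasi-likelihood test), with overlapping groups. Arpc3 fell from 385.0 ± 58.8 to 206.9 ± 31.1 CPM and Arpc2 from 73.30 ± 8.09 to 45.07 ± 3.80 CPM. Actr3b, a paralog of Actr3, rose from 4.165 ± 0.699 to 6.347 ± 0.596 CPM, a small part of the Actr3 level. Arpc4 had 33.97 ± 6.40 and 35.79 ± 4.69 CPM (adjusted p = 0.710), so that Actr2 and Arpc4 were the 2 subunits of 10 that did not pass the test.

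**Figure D4:**
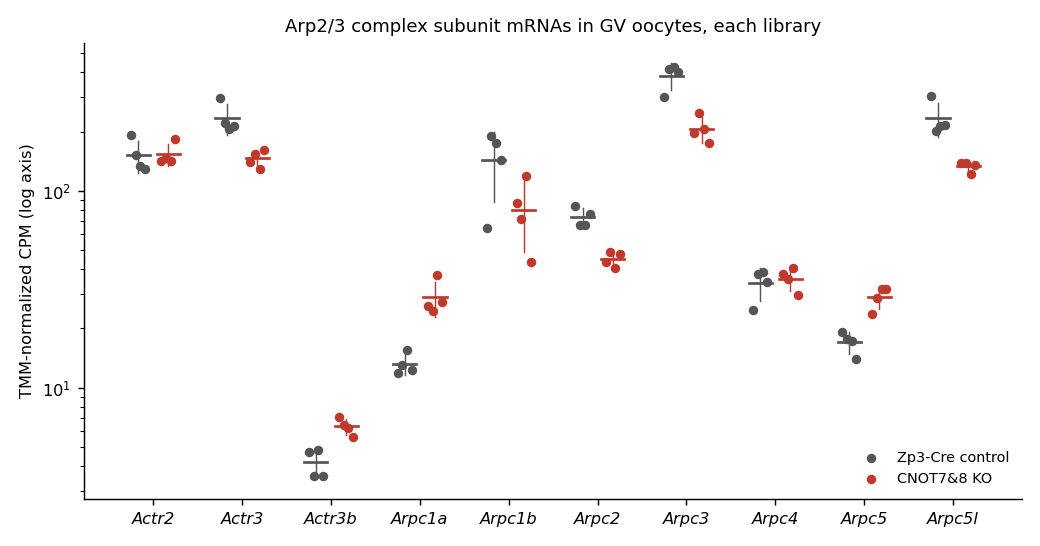
Normalized CPM (log axis) of the 10 Arp2/3 complex subunits in each library, control in grey and KO in red, with means as bars and SDs as lines. Actr3, Arpc2, Arpc3 and Arpc5l are lower and Actr3b, Arpc1a and Arpc5 are higher in the KO without overlap.

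Among 16 tested activators and inhibitors of Arp2/3, 3 were higher and 4 lower (median log2 fold change -0.08). The shares over all tested genes were 31.2% higher and 24.1% lower. The largest changes under the naming rule were a rise of Cttn, the branch-stabilizing cortactin (11.20 to 23.58 CPM), and of Abi2, a WAVE complex subunit (17.80 to 34 CPM), and a fall of Cyfip1, the WAVE subunit that binds RAC1 (82.03 to 36.02 CPM, log2 fold change -1.19), and of the nucleation factor Whamm (88.25 to 41.73 CPM, -1.08). The naming rule took only genes whose groups did not overlap, so this holds for all 4 by choice.

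Of 13 tested formins and Spire-type nucleators other than the regulators above, 4 were higher and 4 lower (median 0.19). All tested genes had shares of 31.2% higher and 24.1% lower. Fmnl3, a formin of cortical protrusions, fell most of the genes named here: it had 450.9, 502.0, 439.8 and 505.4 CPM in control replicates 1 to 4 and 88.83, 73.82, 57.79 and 57.33 CPM in KO replicates 1 to 4. The KO mean was 14.6% of control (log2 fold change -2.78, edgeR's quasi-likelihood test, SE 0.15, adjusted p = 1.07e-07), a larger loss than that of Spire1. Fhod3, the formin of muscle sarcomeres, fell from 573.1 ± 40.8 to 390.9 ± 26.4 CPM (SD, n = 4). Fmnl2, a close relative of Fmnl3, rose from 25.43 ± 9.25 to 63.40 ± 12.4 CPM, and Cobl, a nucleator with tandem actin-binding domains, rose from 11.90 ± 4.82 to 51.34 ± 12.5 CPM.

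Of the 10 other vesicle motors and RAB11 partners, 1 was higher, 0 were lower and the median was -0.06, beside 31.2% higher and 24.1% lower over all tested genes. Myo5b, Rab11a and Myo5a were the members of the list of 12 with at least 100 CPM, a level at which 55.2% of all genes were lower. The gene that rose was Rab25, an epithelial relative of Rab11a, from 3.98 ± 1.16 to 10.70 ± 2.03 CPM (SD, n = 4). Myo5a averaged 142.5 CPM among controls, beside 116.5 CPM in the KO, and did not pass the test (log2 fold change -0.29, adjusted p = 0.0794, edgeR's quasi-likelihood test). It is named here after its value was seen.

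Of 25 tested genes for actin, monomer binding and filament turnover other than Cfl1, 9 were higher and 9 lower (median -0.06). The shares over all tested genes were 31.2% and 24.1%. Ssh2, a phosphatase that activates cofilin, rose from 26.96 ± 5.47 to 85.22 ± 26.4 CPM (SD, n = 4), while Ssh3 of the same family fell from 15.06 ± 2.93 to 5.815 ± 1.74 CPM. Cap1, which recycles actin monomers, rose from 15.24 ± 1.70 to 23.52 ± 2.56 CPM, and the monomer-binding Twf2 fell from 83.36 ± 22.6 to 33.93 ± 7.84 CPM.

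Of 11 tested cortical myosin II and ERM genes, 4 were higher and 5 lower (median 0.03), beside 31.2% and 24.1% of all tested genes. The myosin heavy chain gene Myh9 fell from 150.7 ± 33.2 to 69.99 ± 16.7 CPM (SD, n = 4) and the light chain gene Myl12a from 156.9 ± 28 to 94.86 ± 12.9 CPM. Msn (moesin) rose from 1.587 ± 0.666 to 8.65 ± 1.79 CPM and Ezr (ezrin) from 5.40 ± 0.730 to 11.65 ± 2.98 CPM. Both link actin to the membrane. Their far more abundant paralog Rdx (radixin) fell from 4574 to 2943 CPM, without overlap (log2 fold change -0.64, adjusted p = 0.0005, edgeR's quasi-likelihood test). Rdx is named here after its value was seen.

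**Figure D5:**
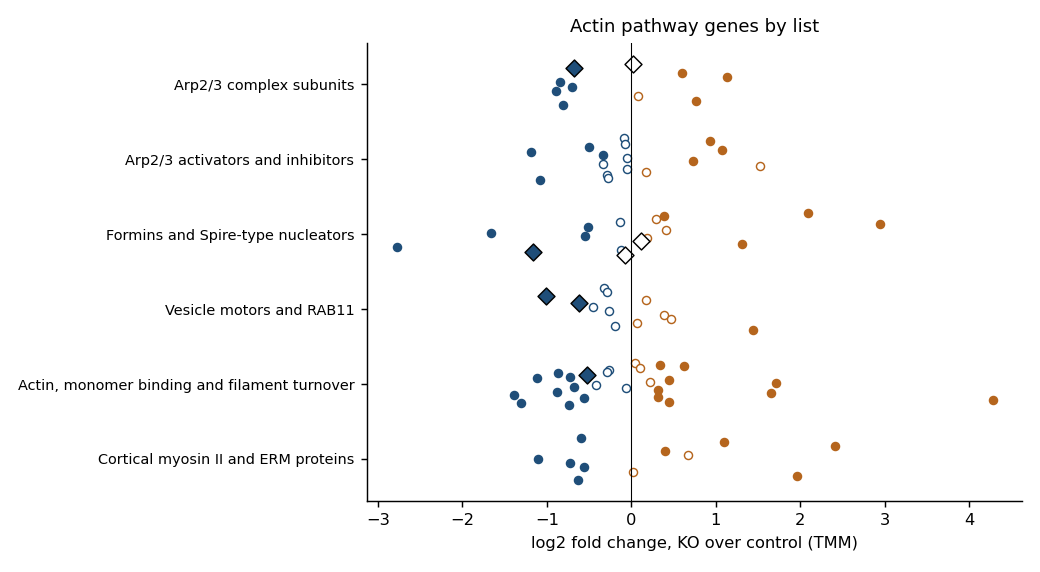
Log2 fold change (KO over control, TMM) of each tested gene in 6 of the 7 lists, with the 8 regulators that belong to them as diamonds, the other genes as circles, and filled symbols for an adjusted p of at most 0.05. The list of vesicle motors and RAB11 holds 2 filled symbols below 0, Myo5b and Rab11a, and Rab25 as a filled symbol above 0. Each of the other lists shown also holds changed genes on both sides.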

How the data were processed

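Oocyte RNA was measured in 4 CNOT7&8 KO and 4 Zp3-Cre libraries, grouped by the deposited labels. The authors mapped reads to GRCm38 with STAR 2.6.1d in nf-core/rnaseq and deposited raw read counts per gene, not normalized; edgeR 3.11 is also named in the submitters' processing notes. The counting tool, annotation release and strand setting are not given in the sources used here. The labels name a total RNA kit with ribosomal RNA removal, and the study's methods name an mRNA kit with ribosomal RNA depletion. Genes with at least 0.2 CPM in 2 libraries were tested with edgeR 4.0.16 (quasi-likelihood test, TMM, Benjamini-Hochberg adjustment over 19241 genes; R 4.3.3, limma 3.58.1), tested on simulated data. Normalized CPM are counts scaled to the TMM-corrected library size. Member values and ratios of partner genes were compared by exact permutation tests, two-sided. Sequences and lengths came from GENCODE vM21 of the same build, taking the longest 3′UTR (50 bases or more) among principal transcripts. The columns of all 8 samples were used.

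The regulators, lists and tests were chosen with earlier results of these data known. Genes named were the 10 regulators, Cnot7 and Cnot8, and from each list at most 2 with the largest increase and 2 with the largest decrease. These were taken among genes with adjusted p of at most 0.05, an average over 8 libraries of 5 CPM or more, and groups without overlap. The other Arp2/3 subunits, Myo5a, Rdx, Daglb and Snx32 were added after their values were seen. The separate result of 1 of the 7 lists is not reported here. Of the list genes, 6 were matched by gene ID instead of symbol. Alternatives were edgeR's exact test, DESeq2 1.42.0, other scalings and filters, a replicate block, another pseudocount, and leaving out each library. Python 3.11.15 (with pandas 2.3.3 for tables, matplotlib 3.10.9 for plots) did the rest.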

Additional observations from a re-analysis of the deposited data

Results flagged for a closer look

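In 5 of 20 groups (10 regulators in control and in KO libraries), 1 library stood far from the other 3 by Dixon's test, where chance alone gives about 1 in 20. The libraries were control replicate 1 and KO replicate 4 each time. Fmn2 had 129 CPM in control replicate 1, where the other controls had 68.3 to 76.3 CPM, and 143 CPM in KO replicate 4, where the other KO libraries had 73.0 to 80.1 CPM. Actr2 had 183 CPM in KO replicate 4, above 141 to 148 CPM in the others. Actr3 had 296 CPM in control replicate 1, above 206 to 220 CPM, and Cfl1 had 368 CPM in control replicate 1, below 381 to 382 CPM. Without both libraries, Actr3 (log2 fold change -0.59) and Cfl1 (-0.48) were still lower, with adjusted p = 6.11e-05 and adjusted p = 0.000253 (edgeR's quasi-likelihood test).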

How the results depend on the processing

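Of 458 alternative values, 410 kept their direction and their side of the threshold, or for counts stayed within 1.5 times, though sizes moved (Rab11a from -0.62 to -0.34 with library size only), 24 changed sign, 8 lost and 1 gained significance, and 15 counts moved by over 1.5 times. None of the 5 regulators that fell changed sign. With library size only, Cfl1 did not pass (log2 fold change -0.25, edgeR's adjusted p = 0.0713; difference of mean log2 CPM -0.25, exact permutation p = 0.0571). Regulators lower by at least 2-fold numbered 2, but 1 with DESeq2, RLE or upper quartile scaling, no filter, or at least 1 CPM in 4 libraries, 0 with library size only or TMM on genes of at least 10 CPM, 1 without both control replicate 1 and KO replicate 4, and from 1 to 2 over single libraries left out (1 without control replicate 1 or 4, or KO replicate 2, 3 or 4). Other pathway genes lower by at least 2-fold were 10, and 5 with library size only or TMM on genes of at least 10 CPM.

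No sign change was in a value that passed the test. With library size only, log2 fold changes were 0.20 for Spire2, 0.077 for Cdc42 and 0.069 for Rac1, and differences of mean log2 CPM were 0.18, 0.084 and 0.073. With TMM on genes of at least 10 CPM the log2 fold changes were 0.16, 0.047 and 0.038, and upper quartile scaling gave Spire2 0.017. Over single libraries left out, log2 fold changes ranged from -0.13 to 0.39 for Fmn2, from -0.24 to 0.13 for Spire2 and from -0.05 to 0.15 for Actr2. The differences of mean log2 CPM then ranged from -0.11 to 0.33 for Fmn2, from -0.28 to 0.14 for Spire2, from -0.058 to 0.15 for Actr2 and from -0.28 to -0.11 for Rac1, which passed without control replicate 3 alone. Ratios ranged from -1.32 to -0.83 (Spire1 over Spire2), from -0.44 to -0.34 (Myo5b over Rab11a) and from -0.059 to 0.055 (Cdc42 over Rac1). Fewer libraries were in these tests. The groups of Spire1 over Spire2 and of Myo5b over Rab11a still did not overlap in any of them.

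Same-numbered libraries did not deviate together (r from -0.12 to 0.11). Of all pairs of a control and a KO library, control replicate 1 and KO replicate 4 had the highest r (0.372). Control replicate 1 and KO replicate 3 had the lowest (-0.331). What these libraries share was not tested. With the replicate block, 5 regulators were lower, 2 of them by at least 2-fold, Spire1 had a log2 fold change of -1.17, and 26 other pathway genes were higher and 34 lower. Spire2 had at least 167 counts in a library, and its values varied between libraries (coefficient of variation 24.8% in control and 31.7% in KO). Its lowest values were in control replicate 1 and KO replicate 4, the deepest library of each group.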

Other observations

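Pairs of paralogs other than the ratios tested above were also compared within each library, chosen after their values were seen and given with no test. Arpc1a had 0.184, 0.069, 0.0887 and 0.0858 times the counts of Arpc1b in control replicates 1 to 4 and 0.301, 0.340, 0.315 and 0.626 times in KO replicates 1 to 4. Both encode the same Arp2/3 subunit, and the KO values were all above the controls (log2 difference 1.93). Arpc5 had 0.0632, 0.0880, 0.0809 and 0.0649 times the counts of Arpc5l in control and 0.172, 0.208, 0.262 and 0.236 times in KO replicates 1 to 4, again without overlap (log2 difference 1.56). In both pairs the scarcer gene took a larger share in the KO, and the more abundant one still had more counts in every library. The direction differed with level over all genes too: 8.37% of those of at least 100 CPM were higher and 55.2% lower. Of all tested genes, 31.2% were higher and 24.1% lower.

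Among the ERM genes, Rdx (radixin) was far more abundant than its paralogs in both groups. It fell from 4574 to 2943 CPM in the KO, where 55.2% of all genes of at least 100 CPM were lower. The ratio of Ezr to Rdx was higher in KO libraries by 1.70 and that of Msn to Rdx by 3.07 on the log2 scale, without overlap, yet even in the KO neither ratio exceeded 0.00485 in any library. The ratio of Cfl1 to its paralog Cfl2 was 1.90, 2.44, 2.29 and 2.36 in control and 2.61, 2.33, 3.33 and 2.09 in KO replicates 1 to 4, with overlapping groups.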
